A study of Capra hircus with 29 samples.

Results

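The genes described here belong to the mitochondrial pathway of apoptosis: the survival members BCL2L10, MCL1, BCL2 and BCL2L1 (which encodes BCL-XL), the death effectors BAX and BAK1, the BH3-only members BID and BCL2L11 (BIM), and CASP9. They were taken by gene symbol from the table of oocyte expression values, and 8 of the 9 had a row among the 21343 genes of the table. No row carries the symbol BCL2L10, so that gene was not analysed here. Expression was given as FPKM, the fragments of a gene scaled by its exon length and by the mapped fragments of the sample, so levels are per length and relative to the total of a sample.

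The 29 samples were oocytes of Ji'ning grey goats from a high and a low fertility population, taken from large, medium and small follicles. HLO, HMO and HSO denote oocytes of large, medium and small follicles in the high fertility group, and LLO, LMO and LSO those in the low fertility group. There were 5 samples in each group and 4 in HSO. The labels set litters of more than 3 kids as high and fewer than 2 as low fertility, whereas the study's methods give at least 3 and at most 2; ages are not given in the sources used here, and no treatment is named. Each sample held 2 to 3 oocytes. By the study's methods, the oocytes of a stage were pooled and then divided into 5 samples; the pooling is spelled out only for the high fertility group. Which goats stand behind a sample is not recorded. The p-values and intervals therefore measure the spread between samples divided from a pool, which may be technical in part. They do not cover the spread between pools or between populations. FPKM keep no read depth, so no counting interval can be given, and a gene at 0 is described as listed at 0.

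As background, the mitochondrial pathway starts when BH3-only proteins bind and block the survival proteins or switch on BAX and BAK1, which then open pores in the outer mitochondrial membrane. Cytochrome c leaves through the pores and joins APAF1, and this complex activates caspase-9, which cleaves the executioner caspases. The balance of survival and death members is known to set whether ovarian germ cells are kept or lost during atresia, the degeneration of follicles. The levels below are of transcripts, not of proteins, many of which are controlled after translation.

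The survival members BCL2L1 and MCL1 stood above the others. The mean level over 29 samples was 5.65 ± 5.33 FPKM (SD) for BCL2L1 (ENSCHIG00000024173) and 2.38 ± 1.65 FPKM for MCL1 (ENSCHIG00000027012). The third survival member, BCL2 (ENSCHIG00000016322), was at 0.266 ± 0.317 FPKM, below BID (ENSCHIG00000014373) at 0.458 ± 0.618, BCL2L11 (ENSCHIG00000020211) at 0.468 ± 0.329 and BAX (ENSCHIG00000016438) at 0.271 ± 0.292 FPKM. CASP9 (ENSCHIG00000011738) was at 0.175 ± 0.229 FPKM, and BAK1 (ENSCHIG00000016258) was listed at 0 in each of the 29 samples. Levels from BCL2L11 down to CASP9 were within their spread of each other. BCL2L1 had a higher mean level than 83.9% of the 21343 genes, MCL1 than 76.2% and BCL2L11 than 60.2%. BCL2L1 was the highest member in 19 samples, MCL1 in 8, BCL2 in 1 and BAX in 1. With the study's limit of 0.5 FPKM, applied here to at least 4 of the 29 samples, 5 of the 8 members passed (BCL2L1, MCL1, BAX, BID and BCL2L11), and BCL2, BAK1 and CASP9 did not; 9692 of all genes passed.

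**Figure D1:**
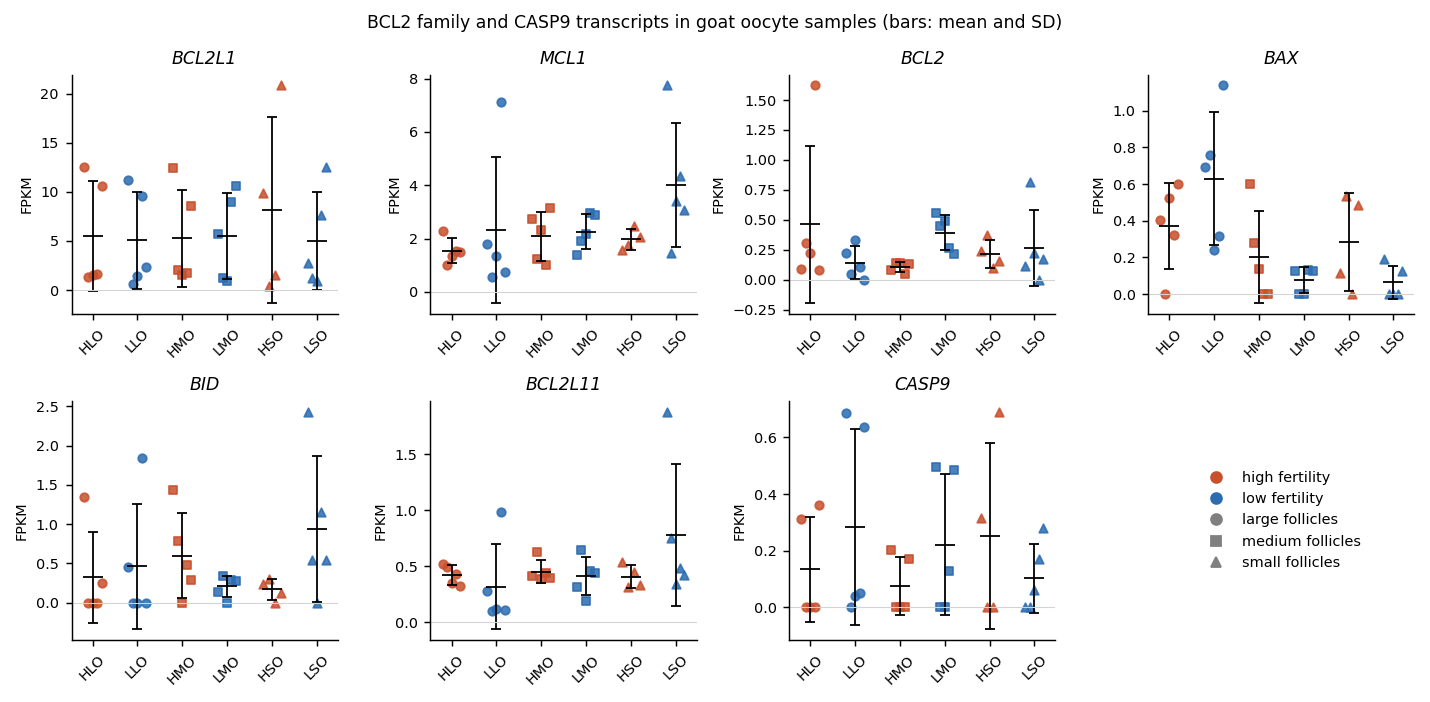
FPKM of 7 members in each of the 29 samples, 1 panel per gene with its own linear axis, the 6 groups on the horizontal axis, points for samples and bars for the mean and SD; BAK1, listed at 0 in all samples, is not drawn. BCL2L1 reaches 20.8 FPKM and falls into a high and a low set of samples inside each group, MCL1 reaches 7.74 FPKM, and CASP9 stays below 0.7 FPKM.

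BCL2L1 encodes BCL-XL, which holds BAX and BH3-only proteins in check at the mitochondrial membrane. In replicates 1 to 5 of HLO its level was 12.5, 1.32, 1.49, 1.59 and 10.6 FPKM, and in LLO it was 11.2, 0.649, 1.45, 9.61 and 2.39 FPKM. In HMO it was 12.4, 2.08, 1.49, 1.73 and 8.57 FPKM, and in LMO 5.69, 1.21, 0.951, 8.99 and 10.6 FPKM. Both pairs of groups overlapped throughout, and in each group some samples stood several-fold above the others. In replicates 1, 3, 4 and 5 of HSO it was 9.87, 0.409, 1.5 and 20.8 FPKM, and in replicates 1 to 5 of LSO it was 2.71, 1.22, 0.874, 7.64 and 12.5 FPKM. The highest and the lowest values of the whole series were thus in the same group, HSO. The symbol BCL2L1 is carried by 5 genes of the table, of which the other 4 were listed at 0 in every sample; reads that fitted more than 1 copy were dropped by the authors, so the level is uncertain to that extent.

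The high and low BCL2L1 samples followed the replicate number in the sample labels rather than the group. Samples numbered 1 ranged from 2.71 to 12.5 FPKM (median 10.5, n = 6) and those numbered 5 from 2.39 to 20.8 FPKM (median 10.6, n = 6). Samples numbered 2 ranged from 0.649 to 2.08 FPKM (median 1.22, n = 5) and those numbered 3 from 0.409 to 1.49 FPKM (median 1.2, n = 6). The 11 samples numbered 2 or 3 thus all lay below the 12 samples numbered 1 or 5. Samples numbered 4 split by population, at 1.5 to 1.73 FPKM in the 3 of high fertility and 7.64 to 9.61 FPKM in the 3 of low fertility. The labels and the study's methods used here do not say what a shared number stands for, so it is given as a label and not as a batch. This pattern was noticed in the values, and limma's F-test of the replicate number beside the 6 groups was added afterwards. It called BCL2L1 (adjusted p = 0.000218) and BID (adjusted p = 0.0330) among the 5 members tested, where 58% of the 9692 genes were called at an unadjusted p under 0.05 and 50.5% at an adjusted p under 0.05. The members' share, 2 of 5, is thus no larger than that of all genes. BCL2L1 ranked 751 of 9692 by p, and it passed the unadjusted limit in all 29 fits that left out 1 sample. BID did not pass it without HLO replicate 1. MCL1 (adjusted p = 0.147) passed it in 1 of these fits, without HMO replicate 4.

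The number of genes above 0.5 FPKM moved with the same label. Its median was 8268.5 in the samples numbered 1, 7421 in those numbered 2, 7239 in those numbered 3 and 8279 in those numbered 5. Among samples numbered 4 it was 7251 to 7980 in high fertility and 8318 to 8689 in low fertility. The summed level of the 12 oocyte markers moved likewise, with a median of 2852 FPKM in samples numbered 1, 1682 in those numbered 2, 1250 in those numbered 3 and 3730 in those numbered 5. Across the 29 samples, Spearman's rho of BCL2L1 was 0.85 with the number of genes above 0.5 FPKM and 0.90 with the first principal component, which held 39.0% of the variance of all genes tested; the points share libraries and depth, so these are descriptions. Other members also ranked with the number of genes, with rho of 0.67 for BID, 0.66 for MCL1, 0.60 for CASP9 and 0.41 for BCL2L11. It was 0.03 for BAX and -0.46 for BCL2. The part of these sample measures in the level of BCL2L1 or of the other members was not tested. Because FPKM are shares of a sample, less of a transcript per oocyte and more of other RNA in the sample cannot be told apart.

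**Figure D2:**
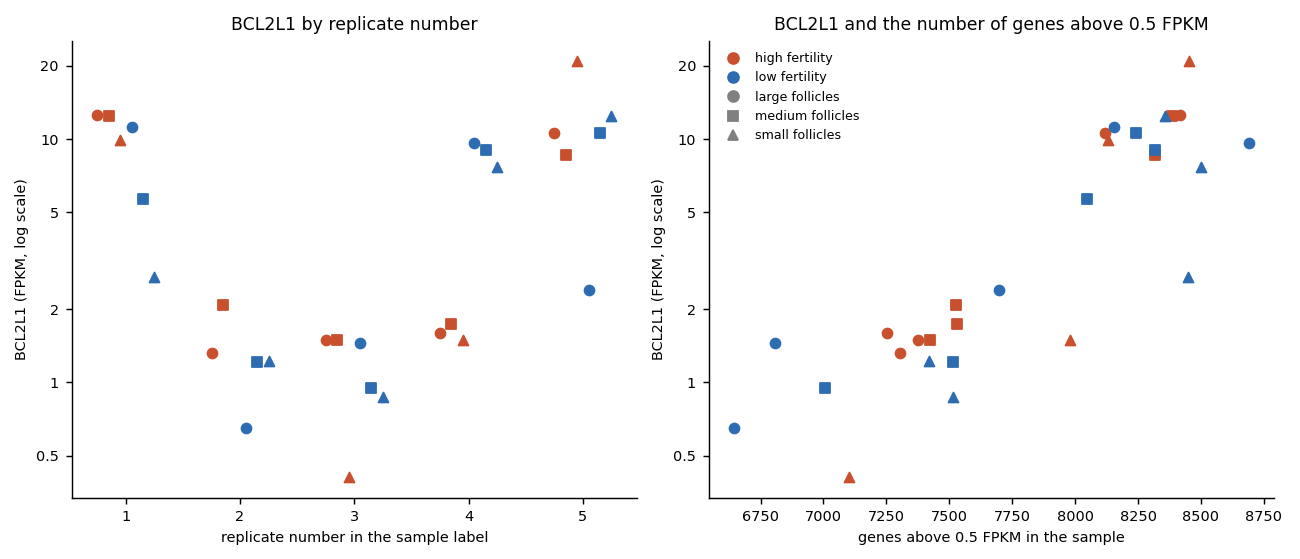
BCL2L1 level in FPKM on a log axis in the 29 samples, by the replicate number of the label (left) and by the number of genes above 0.5 FPKM in the sample (right); colour marks the population and shape the follicle stage. Samples numbered 2 and 3 lie at 0.409 to 2.08 FPKM and those numbered 1 and 5 at 2.39 to 20.8 FPKM, while those numbered 4 split between the populations.

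MCL1, a short-lived survival protein that binds BIM and BAK1, varied less. It was 2.30, 1.02, 1.34, 1.53 and 1.5 FPKM in HLO, and 1.81, 0.572, 1.33, 7.13 and 0.760 FPKM in LLO, where replicate 4 stood alone. It was 2.72, 1.24, 2.31, 1.02 and 3.15 FPKM in HMO, and 1.39, 1.91, 2.18, 2.94 and 2.88 FPKM in LMO. Both pairs of groups overlapped. In HSO it was 1.58, 1.77, 2.46 and 2.06 FPKM, and in LSO 7.74, 1.47, 3.41, 4.36 and 3.06 FPKM. Of the LSO samples, 4 of 5 lay above all HSO samples and replicate 2 lay below them, so that the groups overlapped through 1 sample.

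BCL2, the founding survival member, was low in every group, but its groups of medium follicles did not overlap. It was 0.0788, 0.138, 0.141, 0.0490 and 0.136 FPKM in HMO, and 0.554, 0.448, 0.492, 0.262 and 0.213 FPKM in LMO. All 5 LMO samples thus lay above all 5 HMO samples. BCL2 was the only member of the 7 above 0 whose groups did not overlap at a stage, against 1.49% of the 16021 genes above 0 in these samples; no member stood apart in large follicles (0.476% of genes) or small follicles (1.79%). In HLO it was 0.0869, 0.304, 0.222, 1.62 and 0.0799 FPKM, and in LLO 0.225, 0.0472, 0.335, 0.104 and 0. It was 0.237, 0.371, 0.0949 and 0.160 FPKM in HSO, and 0.119, 0.819, 0.221, 0 and 0.170 FPKM in LSO. Both of these pairs overlapped, and the high values were single samples.

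The effector BAX, which forms the mitochondrial pore, was highest in oocytes of large follicles. It was 0.404, 0, 0.525, 0.324 and 0.602 FPKM in HLO, and 0.693, 0.760, 0.238, 0.318 and 1.14 FPKM in LLO. It was 0.601, 0.278, 0.136, 0 and 0 FPKM in HMO, and 0.126, 0, 0, 0.131 and 0.127 FPKM in LMO. In HSO it was 0.117, 0.536, 0 and 0.488 FPKM, and in LSO 0.191, 0, 0, 0 and 0.126 FPKM. BAX was listed at 0 in 9 of 29 samples, of which 1 was from large follicles, and the groups of medium and small follicles overlapped with those of large follicles. The other effector, BAK1, and the related effector BOK were listed at 0 in all samples, so that BAX was the pore former with a value.

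The BH3-only member BID, which caspase-8 cleaves to link death receptors with mitochondria, was listed at 0 in 10 samples. It was 1.35, 0, 0, 0 and 0.249 FPKM in HLO, 0.456, 0, 0, 1.85 and 0 FPKM in LLO, 1.43, 0.791, 0, 0.483 and 0.292 FPKM in HMO, and 0.138, 0.339, 0, 0.284 and 0.273 FPKM in LMO. In HSO it was 0.241, 0.302, 0 and 0.125 FPKM, and in LSO 2.43, 0.543, 0, 1.15 and 0.543 FPKM. Of the LSO samples, 4 of 5 lay above all HSO samples and replicate 3 was at 0. BCL2L11 (BIM), which binds all survival proteins of the family, was above 0 in every sample, from 0.105 to 1.88 FPKM with a median of 0.428. Its spread was narrow in the high fertility samples, at 0.430 ± 0.0908 FPKM (SD, n = 14), and wider in the low fertility samples, at 0.504 ± 0.454 FPKM (SD, n = 15), where LSO replicate 1 was at 1.88 and LLO replicate 4 at 0.985 FPKM; this difference in spread was not tested.

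CASP9, the initiator caspase of the pathway, was near 0 throughout. It was listed at 0 in 13 samples and exceeded 0.5 FPKM in 3, with a highest value of 0.691 FPKM in HSO replicate 5. It moved with the replicate number, with more overlap than BCL2L1: its median was 0.312 FPKM in samples numbered 1 and 0.423 FPKM in those numbered 5, whereas all 5 samples numbered 2 were listed at 0 and those numbered 3 reached 0.0614 FPKM. LSO replicate 1 was an exception among the samples numbered 1, listed at 0. In the same F-test without a filter on low values, CASP9 had an adjusted p = 0.000299 and BCL2 an adjusted p = 0.734; of the 17172 genes 38.1% were called at an unadjusted and 27.3% at an adjusted p under 0.05. Spearman's rho of CASP9 with BCL2L1 was 0.77 over the 29 samples, the highest of the members, against 0.48 for BID, 0.36 for MCL1, 0.27 for BAX, 0.16 for BCL2L11 and -0.35 for BCL2.

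Survival transcripts outweighed death transcripts in all 29 samples. The summed level of the survival members was 8.30 ± 5.80 FPKM (SD, n = 29) and that of BAX, BAK1, BID and BCL2L11 was 1.2 ± 0.916 FPKM. BAK1 added nothing to the second sum, since it was among the 4171 of 21343 genes listed at 0 in all samples. Without read depth, such a 0 cannot be read as a measured low level. The log2 ratio of both sums, each with 1 FPKM added, was 1.88 ± 0.85, from 0.28 in LLO replicate 2 to 3.63 in HSO replicate 5. By group it was 1.80 ± 0.64 in HLO, 1.48 ± 0.91 in LLO, 1.71 ± 0.90 in HMO, 2.28 ± 0.72 in LMO, 2.22 ± 1.25 in HSO and 1.88 ± 0.85 in LSO. The order from LMO down to LLO did not exceed the spread within groups. No test was made of this score, since its members were chosen with results of these data known.

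The balance rested in large part on BCL2L1. Without it the log2 ratio was 0.71 ± 0.55, above 0 in 26 of 29 samples, and below 0 in LLO replicate 2 (-0.20), LLO replicate 5 (-0.36) and HMO replicate 2 (-0.18). With BCL2L1 included, the ratio was 2.22 ± 0.59 in samples numbered 1 and 2.67 ± 0.94 in those numbered 5, but 0.89 ± 0.40 in those numbered 2 and 1.52 ± 0.51 in those numbered 3. Without it these values were 0.44 ± 0.33, 0.69 ± 0.64, 0.30 ± 0.46 and 1.09 ± 0.55, which gave another order.

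**Figure D3:**
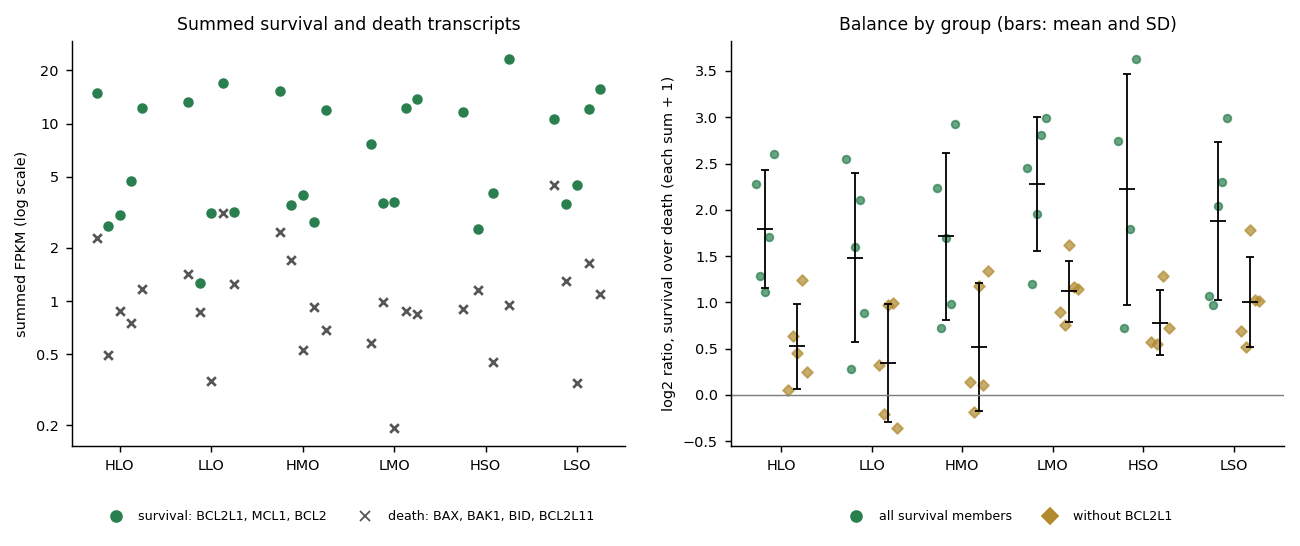
Left, summed FPKM of survival members (circles) and death members (crosses) per sample on a log axis, by group. Right, the log2 ratio of the sums, each with 1 FPKM added, with all survival members and without BCL2L1 (diamonds), with bars for the mean and SD; all 29 ratios lie above 0 with BCL2L1 and 26 without it.

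The study compared both populations at each stage to learn how oocytes of more fertile goats differ. No tested member passed an unadjusted p under 0.05 at any stage in limma's test on log2(FPKM + 1), a scale that understates the change of low genes. In large follicles 0 of 3 members tested were called, where 4.14% of 8328 genes were (0 after Benjamini-Hochberg adjustment). In medium follicles it was 0 of 2, where 8.67% of 8390 genes were called (0.0715% after adjustment). In small follicles it was 0 of 3, where 4.41% of 8376 genes were called (0.0119% after adjustment). The largest differences among tested members were in small follicles, where MCL1 fell short of the limit at a difference of -0.64, HSO minus LSO (SE 0.35, 95% interval -1.41 to 0.12, adjusted p = 0.880). An exact two-sided permutation test gave p = 0.0952 for it. BID did likewise at -0.61 (SE 0.30, interval -1.27 to 0.05, adjusted p = 0.880; exact permutation p = 0.111), but it passed the filter only through LSO, where 4 samples exceeded 0.5 FPKM against 0 in HSO. When each sample was left out in turn, MCL1 ranged from -0.87 (without LSO replicate 2) to -0.41 (without LSO replicate 1) and passed the unadjusted limit in 1 of 9 fits. BID ranged from -0.82 (without LSO replicate 3) to -0.54 (without HSO replicate 4) and passed it in 1 of the 5 fits that still tested it. In both genes the single fit that passed was the one without the LSO sample that lay against the difference, so it adds nothing to it. A limma fit with the replicate number as a block also called MCL1, at -0.87 (unadjusted p = 0.0259). That fit leaves out LSO replicate 2 as well, and what a shared number stands for is not stated. BCL2L1 differed by 0.08 in large (interval -1.41 to 1.57), -0.06 in medium (-1.42 to 1.30) and 0.26 in small follicles (-1.60 to 2.13).

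BCL2 did not pass the filter on low values. Without the filter, it was 0.32 lower in HMO than in LMO (SE 0.076) and passed the unadjusted limit, but not after adjustment (adjusted p = 0.352); of the 16021 genes 8.13% passed the unadjusted limit and 0 passed after adjustment. An exact two-sided permutation test over the samples gave p = 0.00794, the smallest that the 252 splits allow. Groups of 5 that do not overlap always give this value, so it restates that HMO and LMO did not overlap. It was the only p under 0.05 among 21 such tests of 7 members at 3 stages. BCL2 passed the unadjusted limit in each of the 10 fits that left out 1 sample. It did not pass when 1 fit took the spread from all 29 samples (SE 0.17, adjusted p = 0.691, within a range of 0.140 to 0.691 over the alternatives without the filter), among which HLO replicate 4 and LSO replicate 2 were far above their groups. The difference is between levels of 0.108 and 0.394 FPKM, both under the study's limit of expression. HMO and LMO also differed in the summed level of the 11 granulosa cell markers with a row. STAR and SERPINE2 were the most abundant of these, and AMH and NR5A1 were listed at 0. The sum was 19.5, 21.6, 16.1, 24.5 and 27.1 FPKM in HMO, and 33.5, 43.0, 27.2, 37.4 and 53.0 FPKM in LMO. All LMO samples lay above all HMO samples here too, though HMO replicate 5 and LMO replicate 3 nearly met. Within LMO the sum did not follow BCL2: replicate 5 had the highest sum and the lowest BCL2. The percentage of FPKM from mitochondrially encoded genes was 0.0523 ± 0.0271% in HMO and 0.424 ± 0.396% in LMO (SD, n = 5 each). The FPKM of all genes summed to 453372 ± 36661.5 in HMO and 380896 ± 89545.8 in LMO, where replicate 2 had the lowest sum of all samples, 222697. The part of these measures in the difference of BCL2 was not tested.

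Over all stages, with the stage as a covariate, 0 of 5 members were called between the populations, where 9.99% of 9692 genes were (0.0103% after adjustment). The differences, high minus low, were -0.28 for MCL1 (95% interval -0.69 to 0.13), 0.09 for BCL2L1 (-0.82 to 1.0), 0.04 for BAX (-0.16 to 0.24), -0.10 for BID (-0.48 to 0.27) and -0.02 for BCL2L11 (-0.23 to 0.19). When each sample was left out in turn, MCL1 ranged from -0.35 to -0.16 (without LLO replicate 4), BID from -0.18 to -0.014 and BAX from 0.0047 to 0.090. The lowest value of BID came without HLO replicate 1 and its highest without LLO replicate 4, while the lowest of BAX came without HMO replicate 1 and its highest without HLO replicate 2. The sign of BCL2L11 turned with pseudocounts of 0.1 and 0.5 FPKM and with median-of-ratios factors. The interaction of stage and fertility called 0 of 5 members, where 7.89% of genes were called (0 after adjustment). Its adjusted p was 0.726 for BAX and 0.736 for BID. Of its single contrasts with large follicles, that of BAX in small follicles passed the unadjusted limit: high minus low was -0.24 in large and 0.25 in small follicles, opposite in sign, and the contrast of both was 0.49 (adjusted p = 0.945). BAX passed the unadjusted limit without HSO replicate 4 and without LLO replicate 3. BID passed it without LLO replicate 4 and without LSO replicate 3, and BCL2L11 (adjusted p = 0.840 in all samples) without LLO replicate 4.

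**Figure D4:**
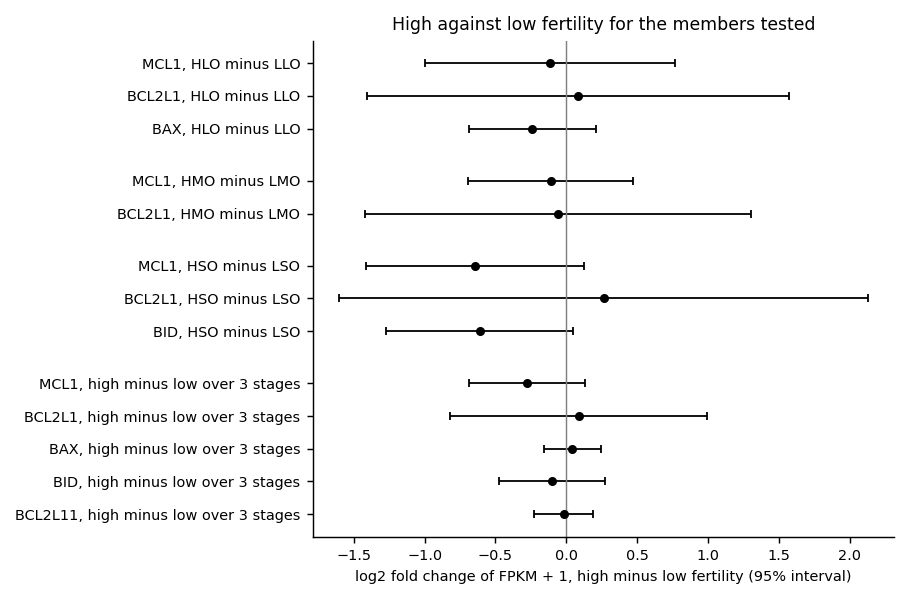
Difference between high and low fertility on the log2(FPKM + 1) scale for the members tested at each stage and over 3 stages, with 95% intervals from limma. Every interval holds 0; those of BCL2L1 are the widest, -1.60 to 2.13 in small follicles.

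Between follicle stages, BAX was the only 1 of 5 members tested that passed the unadjusted limit in limma's F-test with fertility as a covariate, and it ranked 9 of 9692 genes by p. Of all genes 1.66% passed that limit and 0 passed after adjustment, BAX included (adjusted p = 1.0). BAX exceeded 0.5 FPKM in 5 samples of large, 1 of medium and 1 of small follicles, so it entered the test through the stage where it was high; without the filter it also passed the unadjusted limit. BAX was 0.38 lower in medium than in large follicles (SE 0.12) and 0.36 lower in small than in large follicles (SE 0.12), both past the unadjusted limit. Its mean level was 0.50 ± 0.319 FPKM (SD, n = 10) in large, 0.140 ± 0.186 FPKM (n = 10) in medium and 0.162 ± 0.211 FPKM (n = 9) in small follicles. These values pool both populations. The means were 0.629, 0.0770 and 0.0634 FPKM in LLO, LMO and LSO, but 0.371, 0.203 and 0.285 FPKM in HLO, HMO and HSO, where the stages lay closer together. BAX passed the limit in all 29 fits that left out 1 sample, and with a limit of 1 FPKM in place of 0.5 it was not tested. MCL1 was 0.52 higher in small than in large follicles (SE 0.25), past the unadjusted limit for this contrast (adjusted p = 0.996), while its F-test did not pass. That F-test passed without LLO replicate 4, the sample with the high MCL1 of large follicles. BCL2L1, BID and BCL2L11 were not called, with adjusted p = 1.0 each.

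Around these members, a list of 60 further apoptosis genes was read in the same table, of which 51 had at least 1 row and 35 rows passed the filter. Other survival members were low: BCL2L2 was at 0.608 ± 1.10 FPKM and BCL2A1 at 0.371 ± 0.648 FPKM. Of the other BH3-only genes with a row, BBC3 (PUMA), PMAIP1 (NOXA) and HRK were listed at 0 in all samples, and BAD and BMF had means of 0.102 and 0.0559 FPKM; BAD exceeded 0.5 FPKM in 2 samples. BIK was not analysed here. With the highest gene of each symbol, the 9 atypical relatives ranged widely, from BCL2L13 at 0.0206 FPKM, listed at 0 in 23 samples, to BNIP1 at 40.5 ± 30.3 FPKM. After BNIP1 came the mitophagy receptor BNIP3L at 32.7 ± 19.96 FPKM, a symbol of 4 genes of which this was the highest, and BCL2L15 at 26.6 ± 14.2 FPKM.

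Among caspases, the executioner CASP6 was at 24.01 ± 22.1 FPKM. The initiators CASP2 and CASP8 had means of 0.102 and 0.0183 FPKM, both below CASP6 on this scale. APAF1, the scaffold of caspase-9, was at 1.62 ± 0.724 FPKM. DIABLO, released from mitochondria to block caspase inhibitors, was at 8.95 ± 4.85 FPKM, and the channel gene VDAC3 at 69.1 ± 46.6 FPKM; 5 genes carry the symbol VDAC3 and 2 carry APAF1, so both are uncertain. Of the inhibitors of apoptosis, BIRC5 (survivin, which also serves in chromosome segregation) was at 102 ± 30.7 FPKM, BIRC2 at 3.59 ± 1.21 FPKM and XIAP, the direct inhibitor of caspases, at 1.30 ± 0.914 FPKM. BIRC5 is a symbol of 2 genes, of which the other was at 0.273 FPKM. FBXW7, a component of a ubiquitin ligase that marks MCL1 for degradation, was at 27.7 ± 12.0 FPKM, and USP9X, which removes ubiquitin from MCL1, at 2.61 ± 1.48 FPKM.

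**Figure D5:**
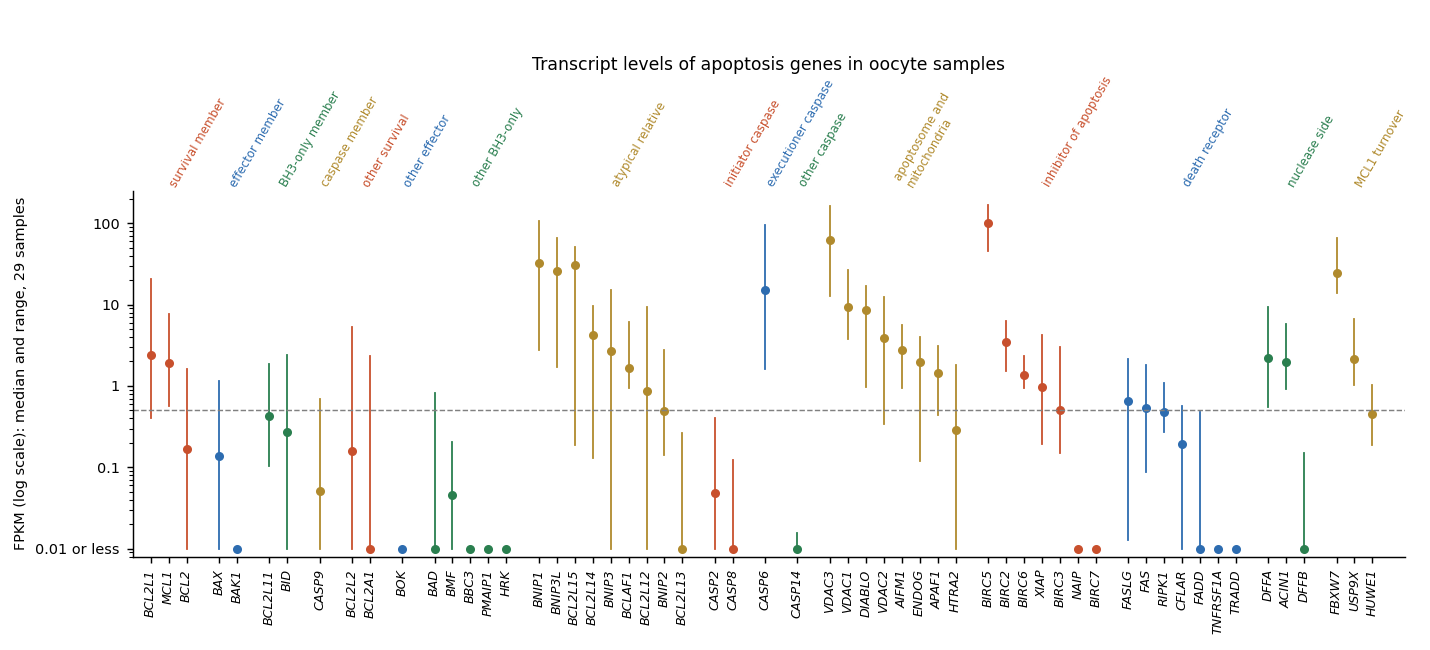
Median and range over 29 samples of each member and of the further apoptosis genes with a row that are reported, on a log FPKM axis, grouped by role; values of 0.01 FPKM or less are drawn at 0.01, the dashed line marks 0.5 FPKM, and the gene with the highest mean is drawn where a symbol has several. BIRC5, VDAC3 and several relatives of the family lie above the survival members, while the medians of BH3-only genes and initiator caspases lie below 0.5 FPKM.

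Between the populations, 1 of 33 of these genes was called in large follicles, 3 of 32 in medium and 0 of 30 in small follicles at an unadjusted p under 0.05, beside 4.14%, 8.67% and 4.41% of all genes, and none after adjustment. These shares are close to or below those of all genes. Their median difference was -0.13 in large, -0.22 in medium and -0.01 in small follicles, beside -0.09, -0.07 and -0.01 for all genes tested. BCL2L15, a relative of unsettled function, was 2.12 higher in HLO than in LLO (adjusted p = 0.828), with 19.8 to 35.7 FPKM (median 31.2) in HLO and 0.187 to 37.8 FPKM (median 6.42) in LLO. The summed granulosa cell markers were at 35.3 ± 7.95 FPKM in HLO and 21.6 ± 5.49 FPKM in LLO, and their part was not tested. The groups overlapped in BCL2L15, and the difference missed the limit in 7 of the 10 fits that left out 1 sample, namely HLO replicates 1, 2, 3 and 5 and LLO replicates 2, 4 and 5. In medium follicles BCL2A1 was 0.81 higher in HMO (adjusted p = 0.254), and it was listed at 0 in all 5 LMO samples, so that it passed the filter only through HMO. BIRC2 was 0.70 lower in HMO than in LMO (adjusted p = 0.376), at 2.59 ± 0.496 against 4.84 ± 0.927 FPKM. FASLG, a ligand of the death receptor FAS, was 0.48 lower in HMO (adjusted p = 0.358), at 0.490 ± 0.0505 against 1.10 ± 0.385 FPKM. FASLG exceeded 0.5 FPKM in 5 LMO and 2 HMO samples and so passed the filter through LMO. Without the filter the call of BCL2L15 was lost, whereas those of BCL2A1 and FASLG were made, and that of BIRC2, which exceeded 0.5 FPKM in all 10 samples, held in every fit that left out 1 sample. All 3 were compared between groups that also differed in summed granulosa cell markers, at 21.8 ± 4.297 FPKM in HMO and 38.8 ± 9.80 FPKM in LMO. Most of that sum was STAR and SERPINE2, with means of 18.8 and 9.05 FPKM over 29 samples against 30.1 FPKM for the sum. FSHR and INHA had means of 0.0403 and 0.0768 FPKM. The part of these markers was not tested.

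Over all stages 2 of 35 were called, BCL2L15 at 1.18 (adjusted p = 0.458) and APAF1 at -0.32 (adjusted p = 0.481); 9.99% of all genes were called, and the median difference was -0.04 both in the list and over all genes. The call of APAF1 was lost in 14 of the 29 fits that left out 1 sample. In these fits the number called ranged from 1 (without HLO replicate 2, among others) to 5 (without LLO replicate 3), and it was 4 with quantile normalization. The interaction called 2 of 35, beside 7.89% of all genes, BCL2A1 (adjusted p = 0.274) and FASLG (adjusted p = 0.498). When each sample was left out in turn this count ranged from 1 to 4, with 4 without LLO replicate 4. FASLG passed the limit neither without LLO replicate 2 nor without LLO replicate 5. The stages called 0 of 35, beside 1.66% of all genes. With 1 sample left out, the stages called 1 of the list in 5 of 29 fits, among them that without HLO replicate 1, and 0 in the others.

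With the replicate number, 20 of 35 of these genes were called at an adjusted p under 0.05, beside 50.5% of all genes. The test and the examples below were added after the values were seen, so their p-values only describe the pattern. CASP6 had medians of 39.9 FPKM in samples numbered 1 and 46.1 in those numbered 5, but 5.41 in those numbered 2 and 4.35 in those numbered 3 (adjusted p = 3.28e-05). BNIP1 had medians of 88.8, 49.0, 12.1 and 10.5 FPKM in the same order (adjusted p = 8.56e-05), and the channel gene VDAC2 10.1, 5.73, 1.65 and 2.05 FPKM (adjusted p = 0.000117). BIRC5 was spread otherwise, with medians of 86.9, 118, 94.3 and 73.6 FPKM and 127 FPKM in samples numbered 4 (adjusted p = 0.0214). CASP6 and BCL2L1 were thus high in the samples that also held more genes above 0.5 FPKM.

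Over the 29 samples the genes whose levels ranked most like BCL2L1 were EEF1AKMT1, which encodes a lysine methyltransferase of an elongation factor (Spearman's rho 0.96), and 2 of the 3 genes with the symbol LDH-A, lactate dehydrogenase A (0.95 and 0.95), the more abundant of which was at 219 ± 215 FPKM. For BCL2L11, the death member with the highest mean, they were AP2A2 (0.84), ZNF574 (0.83) and AMDHD2 (0.82). These are the highest of all genes tested, and the samples share libraries and depth.

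The labelled cell type was checked against marker genes. Of 12 oocyte markers 11 passed the filter, among them ZP3 at 1406 ± 1130 FPKM, GDF9 at 312 ± 227 FPKM and BMP15 at 152 ± 56.4 FPKM, while OOSP2 was listed at 0 in 28 samples. Of 13 granulosa cell markers 11 had a row and 5 passed the filter; the defining genes AMH and NR5A1 were listed at 0 in all samples, and FSHR and INHA had means of 0.0403 and 0.0768 FPKM. The most abundant genes of that list were STAR at 18.8 ± 8.17 FPKM and SERPINE2 at 9.05 ± 4.18 FPKM, which held most of the summed level. That sum was 9.91 to 53.0 FPKM per sample, with a mean of 30.1 FPKM. Of 6 theca and stroma markers 4 had a row and 2 passed, DCN at 7.95 ± 4.59 FPKM and COL1A2 at 1.73 ± 0.923 FPKM. COL1A1 and PDGFRA had means of 0.00211 and 0.00308 FPKM, so the sum of 2.91 to 17.4 FPKM was nearly all DCN and COL1A2. Endothelial markers summed to 0.125 to 2.33 FPKM, with KDR as the most abundant and CDH5 listed at 0, and leukocyte markers to 0 to 0.672 FPKM, with CD68 as the most abundant and CD14, CD74 and TYROBP listed at 0. This sum of DCN and COL1A2 in the main moved with the replicate number. Its means were 12.6 FPKM in samples numbered 1 and 14.3 in those numbered 5, against 6.56 and 5.52 FPKM in those numbered 2 and 3. Endothelial markers moved likewise, with means of 1.17 and 0.953 against 0.427 and 0.421 FPKM. Spearman's rho with BCL2L1 was 0.72 for the theca and stroma sum, 0.57 for the endothelial, 0.48 for the leukocyte and 0.25 for the granulosa cell sum. The part of these markers in the level of BCL2L1 was not tested.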

How the data were processed

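RNA-seq of 29 goat oocyte samples was used; granulosa cell samples were not analysed here. The authors aligned reads to the goat genome, kept unique matches without duplicates (picard) and deposited the FPKM of each gene in 1 table, computed with Cufflinks and the Ensembl annotation; the build is not given in the sources used here, so no coordinates are printed. Each column was matched to a sample through its name; 1 column without a sample was not used. No 2 samples held identical values. Tests took the genes that exceeded 0.5 FPKM in 4 or more samples of a comparison, and were made with limma 3.58.1 (R 4.3.3; moderated tests with a trend) on log2(FPKM + 1), with Benjamini-Hochberg adjustment over all genes tested. Calls used an unadjusted p under 0.05, and separately an adjusted p. Single members were also tested by exact permutation. Alternatives were pseudocounts of 0.1 and 0.5, no filter or 1 FPKM, median-of-ratios factors, quantile normalization, a replicate block, 1 fit of all groups, and each sample left out. The procedure was tested on simulated data. Named genes are all members, the genes of the further list at an unadjusted p under 0.05 (at most 3 per direction), and the 3 genes most like the top survival and death member; levels of other listed genes are given as examples. Some genes of the further list enter its counts but are not reported here by name. Members and lists were chosen with earlier results of these data known. The test of the replicate number and its examples were added after the values were seen. Values were tabulated and plotted with Python 3.11.15, numpy 2.4.6, pandas 2.3.3, scipy 1.17.1 and matplotlib 3.10.9. FPKM keep no read depth.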

Additional observations from a re-analysis of the deposited data

Results flagged for a closer look

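In 8 of 42 checks of a member in a group, 1 sample stood far above the rest of its group (Dixon's criterion at 95%); chance flags about 1 group in 20 where values are normally spread, which values near 0 FPKM are not, so the number of flags was not set against a measured rate. MCL1 was 7.13 FPKM in LLO replicate 4, where the other 4 samples were at 0.572 to 1.81 FPKM. In the same sample BID was 1.85 FPKM against 0 to 0.456, and BCL2L11 was 0.985 FPKM against 0.105 to 0.277, so that 3 of the 8 were in 1 sample; it also had the most genes above 0.5 FPKM of all samples, 8689. BCL2 was 1.62 FPKM in HLO replicate 4 against 0.0799 to 0.304, and 0.819 FPKM in LSO replicate 2 against 0 to 0.221. BID was 1.35 FPKM in HLO replicate 1 against 0 to 0.249. BCL2L11 was 0.629 FPKM in HMO replicate 2 against 0.391 to 0.442, and 1.88 FPKM in LSO replicate 1 against 0.343 to 0.751. All 8 were the highest sample of their group. MCL1 and BID were also highest of their group in LSO replicate 1, at 7.74 and 2.43 FPKM.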

How the results depend on the processing

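The numbers of calls depended on the settings, while the statement that few members differed between groups changed for single members. Without the filter the genes called at an unadjusted p under 0.05 were 609 for HLO against LLO (main value 345), 1302 for HMO against LMO (727), 743 for HSO against LSO (369), 364 between stages (161) and 1197 for the interaction (765); 0 genes passed adjustment for HMO against LMO (6) and over all stages (1), and 1 member, BCL2, was called for HMO against LMO. Of the further list, the fits without the filter called 0 genes in large, 5 in medium and 1 in small follicles (main values 1, 3 and 0). They called 1 between stages (0). With a limit of 1 FPKM, 0 members were called between stages, since BAX was no longer tested. Median-of-ratios factors gave 13 genes after adjustment for HMO against LMO, 0 over all stages and 2 for the interaction, and turned BCL2L1 in medium follicles to 0.037; the factors moved the median of all genes by less than 0.1. Quantile normalization gave 540 unadjusted genes for HLO against LLO, and after adjustment 14 for HMO against LMO, 0 over all stages and 2 for the interaction. A pseudocount of 0.1 gave 2 genes after adjustment for HSO against LSO (1). BCL2L11 over all stages (-0.02) turned to 0.11 and 2.28e-05 with pseudocounts of 0.1 and 0.5 and to 0.038 with median-of-ratios factors. With 1 fit of 6 group means, 950 genes were called for HLO against LLO unadjusted, and after adjustment 3 for HMO against LMO and 0 for HSO against LSO. The cause of these changes was not tested. The planned exact permutation tests called 0 of the members tested by limma, as did limma. Of balance values, the mean of logs gave 1.03 in HLO and 1.28 in LMO, and leaving BCL2L1 out gave 0.52 in HLO, 0.35 in LLO, 0.52 in HMO, 1.12 in LMO, 0.78 in HSO and 1.01 in LSO; CASP9 counted as a death member moved no group by more than its SD.

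The samples share only a replicate number: in 10 of 14 pairs of high and low samples with the same number and stage the deviations from the group means correlated over 0.1, and in the others the correlation was -0.05, -0.41, -0.00 and -0.48. A replicate block gave 684, 1376 and 788 unadjusted genes in large, medium and small follicles, 1461 over all stages, 277 between stages and 1405 for the interaction. After adjustment it gave 1, 127 and 0 genes in large, medium and small follicles and 70 for the interaction. Of the further list it called 5 genes in medium follicles (main value 3), 1 in small follicles (0), 5 over all stages (2), 1 between stages (0) and 5 for the interaction (2). It called 1 member in small follicles, MCL1 (-0.87), and 1 for the interaction, BID. In small follicles the block leaves out LSO replicate 2, which has no partner there, whereas the interaction fit keeps that sample.

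When each sample was left out in turn, the unadjusted genes ranged from 152 to 879 in large follicles (lowest without LLO replicate 5, highest without LLO replicate 3), 398 to 1046 in medium (without HMO replicate 4 and without HMO replicate 2), 153 to 643 in small (lowest without HSO replicate 1, highest without LSO replicate 5) and 85 to 489 between stages (without LLO replicate 2 and without LLO replicate 4). After adjustment they ranged from 0 to 1 in large, 0 to 160 in medium, 0 to 2 in small follicles, 0 to 2 over all stages and 0 to 59 for the interaction. Members called ranged from 0 to 1 in small follicles, 1 to 2 between stages, 0 to 2 for the interaction and 1 to 3 for the replicate number. Genes of the further list called ranged from 0 to 2 in large, 2 to 4 in medium and 0 to 1 in small follicles. MCL1 ranged from -0.31 to 0.28 in large (highest without LLO replicate 4), -0.23 to 0.027 in medium and -0.87 to -0.41 in small follicles. BCL2L1 ranged from -0.30 to 0.44 in large, -0.43 to 0.24 in medium, -0.41 to 0.91 in small follicles and -0.10 to 0.25 over all stages, and BCL2L11 over all stages from -0.042 to 0.044. FPKM give no depth, so differences of genes below about 0.5 FPKM cannot be set against their counting error.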

Other observations

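Genes of the table without a standard symbol were looked up by their description after the values had been seen. A gene described as caspase-14 (LOC100861209) was at 25.1 ± 38.8 FPKM over 29 samples, from 0.726 to 186 FPKM, whereas the gene with the symbol CASP14 had a highest value of 0.0154 FPKM. Genes described as cytochrome c (LOC102173997) and cytochrome c 2 (LOC106501717) were at 195 ± 64.0 and 268 ± 75.4 FPKM, while no row carries the symbol CYCS, which was not analysed here.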
